A study of Mus musculus with 6 samples.

Results

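p53 is a transcription factor that is stabilised when cells are stressed and then switches on a set of target genes. This account concerns 10 of those targets: Cdkn1a, Mdm2, Ccng1, Trp53inp1, Phlda3, Zmat3, Plk2, Btg2, Sesn1 and Aen. They were chosen by name as known p53 targets, with earlier results of these data known. They were found on the arrays through the RefSeq accession of each probe. They are 10 of 32530 genes or unnamed accessions on the array, and 13 of its 39429 probes represent them. All 10 were well above background on all 6 arrays through at least 1 probe, so every one was tested.

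RNA came from the trunk of mouse embryos at embryonic day 9.5, with the otic vesicle as its front limit, somite 15 as its rear limit and the forelimb buds included. The 3 Arid3b-null samples came from embryos without Arid3b, which encodes an ARID-type DNA-binding transcription factor, and the 3 wild-type samples from embryos of the same stage. Each sample was RNA pooled from 4 embryos of 1 genotype, so the arrays hold RNA of 24 embryos and the spread within a group is that between pools. The labels name no strain, no treatment and no design of the null allele. The RNA was labelled with 1 dye, Cy3, and each sample had an array of its own.

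Levels below are log2 of the background-subtracted signal minus the array's own 75th percentile, so that 0 is the level of the spot at that percentile. A change is the Arid3b-null mean minus the wild-type mean on that scale, given with its standard error (SE). Differences were tested with limma over 19795 genes, and a gene passed where its Benjamini-Hochberg adjusted p was under 0.05. Levels are not compared between genes, since probes differ in brightness. The 75th percentile itself was 617 to 669 signal units on the Arid3b-null arrays and 611 to 844 on the wild-type arrays, no spot was saturated, and 23940 to 26852 probes per array were well above background. Arid3b was at 0.54, 0.65 and 0.46 on the Arid3b-null arrays and at 2.18, 2.57 and 1.97 on the wild-type arrays. That is 31.0% of the wild-type signal left, with a change of -1.69 ± 0.17 and an adjusted p of 0.00154. The other 2 Arid3b probes, which passed the background test on 2 Arid3b-null arrays each, were at 10.6% and 26.9% of wild type (changes of -3.23 ± 0.20 and -1.90 ± 0.18). Whether these probes lie inside or outside what the null allele removes is not stated by the labels or files. All 6 trunk markers looked at (Meox1, Pax3, Tbx5, Hoxb6, Olig2 and Tcf15) were above background and tested.

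p53 works in a feedback circuit: it induces Mdm2, whose product marks p53 for destruction. In unstressed embryos p53 is kept low, and mouse embryos that lack Mdm2 die early unless p53 is lost as well. The targets carry out different parts of the response. Some arrest the cell cycle, some damp p53 or growth signalling, and others handle oxidative stress, autophagy, RNA or cell death. p53 binds DNA as a tetramer on a pair of half-sites of 10 bases, with a short spacer or none between them.

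The sequences around the start sites show which of these genes carry such a half-site close to the start. RefSeq windows of assembly GRCm38.p6, 250 bases before and 50 from the start, were at hand for 8 of the 10 genes, and not for Trp53inp1 (chromosome 4) and Zmat3 (chromosome 3). The p53 half-site consensus, searched on both strands, was found in 5 of those 8 genes and in 8.36% of all 32851 windows. A gene counts here if any of its windows holds a match, whereas the share is per window. Cdkn1a, Sesn1 and Aen have 2 windows each. The 5 genes were Cdkn1a, Mdm2, Ccng1, Sesn1 and Aen. The window of the upstream Cdkn1a start is printed because it holds 2 half-sites 12 bases apart, at 73 and 51 bases before the start. That of Aen is printed because it holds the half-site of a gene that passed the test in the reported fit. Aen passed under 7 of 17 alternatives to that fit. Capitals in these first 2 sequences mark the half-sites. The Cdkn1a window is chr17:29090729-29091028 on the plus strand, and its start lies 2790 bases upstream of the gene's other start. The 10 bases that follow its second half-site, tgacatgttc, differ from the consensus at 1 base. Such near matches were not searched for in the windows of the other genes. The Aen window is chr7:78895808-78896107 on the plus strand. Its half-site begins 121 bases before the start site of this window, and at base 11 where the gene's other start is counted as base 1.
Cdkn1a: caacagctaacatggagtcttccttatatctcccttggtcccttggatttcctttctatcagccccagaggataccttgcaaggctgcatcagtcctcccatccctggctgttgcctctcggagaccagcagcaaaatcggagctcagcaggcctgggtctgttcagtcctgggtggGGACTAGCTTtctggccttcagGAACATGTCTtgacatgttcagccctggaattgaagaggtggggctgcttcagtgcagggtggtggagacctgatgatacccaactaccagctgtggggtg
Aen: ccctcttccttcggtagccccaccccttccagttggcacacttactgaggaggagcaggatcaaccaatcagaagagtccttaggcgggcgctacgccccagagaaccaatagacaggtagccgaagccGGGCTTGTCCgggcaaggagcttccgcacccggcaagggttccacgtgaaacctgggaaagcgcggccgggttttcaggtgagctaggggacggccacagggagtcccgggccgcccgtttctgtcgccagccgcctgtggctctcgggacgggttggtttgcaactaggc

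Plk2 and Btg2, the members with the highest and the lowest change, hold no exact match to the half-site consensus but share another match. Both hold the cAMP response element TGACGTCA, a palindrome that reads the same on both strands and that was found in 2 of the 8 genes and in 1.79% of all windows. It is in capitals in the 2 sequences that follow. It lies 62 bases before the Plk2 start, in the window chr13:110394794-110395093 on the plus strand, and 166 bases before the Btg2 start, in the window chr1:134079106-134079405 on the minus strand. These matches describe the letters in a window and do not show that a factor bound there. The motifs were chosen with earlier results of these data known, and both windows are printed for the match they hold. The shared match is therefore a description and not a test.
Plk2: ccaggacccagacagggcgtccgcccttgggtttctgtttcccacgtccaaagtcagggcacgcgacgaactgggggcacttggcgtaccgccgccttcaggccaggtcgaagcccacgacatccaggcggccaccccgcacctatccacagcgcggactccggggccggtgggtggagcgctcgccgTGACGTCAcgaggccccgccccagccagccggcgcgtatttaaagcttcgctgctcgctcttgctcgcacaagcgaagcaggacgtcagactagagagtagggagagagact
Btg2: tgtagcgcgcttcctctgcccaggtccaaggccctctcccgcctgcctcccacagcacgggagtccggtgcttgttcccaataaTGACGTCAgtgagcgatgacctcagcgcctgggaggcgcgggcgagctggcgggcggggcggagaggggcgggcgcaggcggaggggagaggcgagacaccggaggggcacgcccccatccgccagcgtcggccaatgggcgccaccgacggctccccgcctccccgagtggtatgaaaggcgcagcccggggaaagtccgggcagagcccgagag

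The remaining half-sites were GAACTTGCCT at 186 bases before the Mdm2 start (chr10:117710709-117711008, minus strand), GGGCAAGCCT at 185 bases before the Ccng1 start (chr11:40755237-40755536, minus strand) and AAGCTTGTTT at 173 bases before the Sesn1 start (chr10:41887189-41887488, plus strand). The Phlda3 window held no exact match to the half-site consensus. The E-box CAGCTG, bound by basic helix-loop-helix factors, was in the Cdkn1a and Mdm2 windows and in 16.3% of all windows.

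The 10 genes did not move together in Arid3b-null trunks. Plk2 rose 1.57-fold, while Btg2 fell to 46.8%, Trp53inp1 to 63.3% and Aen to 74.4% of wild type. Cdkn1a, Mdm2, Ccng1, Phlda3, Zmat3 and Sesn1 did not pass the test, with changes between 0.07 and 0.23. Thus 4 of 10 passed, where 26.6% of all 19795 genes did, 1 of them higher (13.6% of all genes) and 3 lower (12.9% of all genes). The median change was 0.13 over the 10 genes (quartiles -0.30 and 0.20) and -0.039 over all genes (quartiles -0.33 and 0.27).

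**Figure D1:**
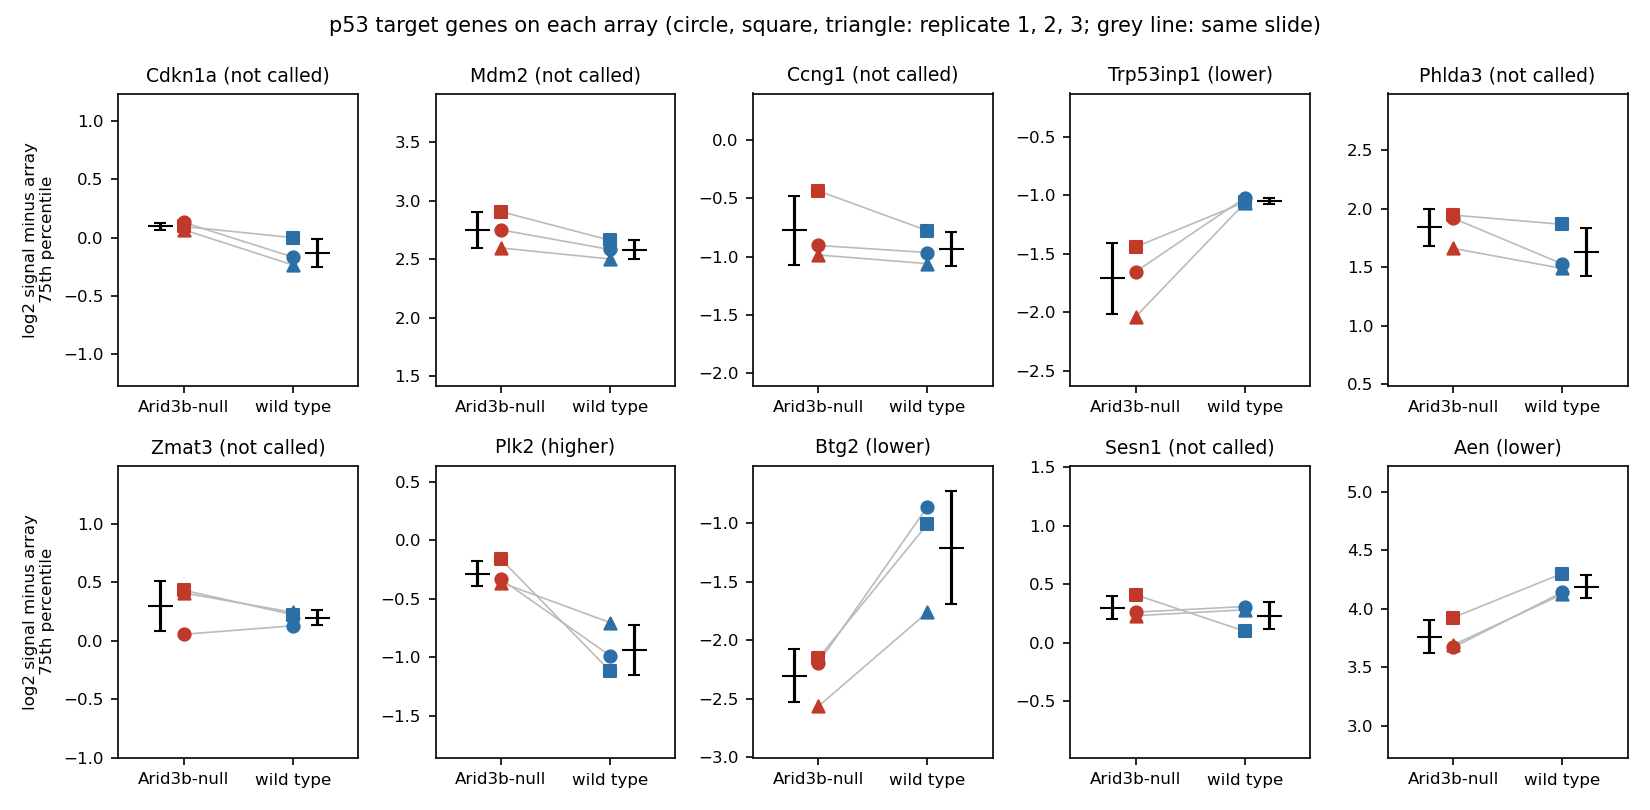
Level of each p53 target gene on each array (y axis, log2 signal minus the array's 75th percentile, 1 panel per gene with an equal span), with Arid3b-null arrays in red on the left and wild-type arrays in blue on the right. Circles, squares and triangles are replicates 1, 2 and 3, grey lines join arrays of 1 slide, black bars give mean and SD (n = 3), and panel titles say whether the gene passed the test (higher, lower) or did not (not called). The groups stand apart in Plk2, Cdkn1a, Btg2, Trp53inp1 and Aen.

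The ranges of Arid3b-null and wild-type arrays stood clear of each other in 5 of the 10 genes (50%), against 46.2% of the genes measured on all 6 arrays. Arid3b-null arrays were the higher ones in Cdkn1a and Plk2 and the lower ones in Trp53inp1, Btg2 and Aen. Among the Arid3b-null arrays, replicate 2 had the highest level in 9 of the 10 genes, and in 38.1% of all genes. Its part in the results was not tested beyond leaving it out, which is given with each gene that passed. For the genes that did not pass, the changes without this array were 0.23 in Cdkn1a, 0.09 in Mdm2 and -0.01 in Ccng1. They were 0.16 in Phlda3, 0.03 in Zmat3 and 0.02 in Sesn1.

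Cdkn1a encodes p21, the inhibitor of cyclin-dependent kinases through which p53 holds cells before DNA replication. Its level was 0.13, 0.09 and 0.07 on the Arid3b-null arrays and -0.17, -0.00099 and -0.23 on the wild-type arrays. The Arid3b-null arrays were all higher and lay close together, but the margin over wild-type replicate 2 was small. The change was 0.23 ± 0.11 (95% interval -0.02 to 0.49), or 1.17-fold (0.984 to 1.40), with an adjusted p of 0.157. It was positive on all 3 slides, at 0.30, 0.10 and 0.30. Those values come from a probe printed 10 times. A second Cdkn1a probe, for another RefSeq transcript, stayed below that background test on all 6 arrays.

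Plk2, a polo-like kinase that acts in centriole duplication and is induced quickly by growth signals as well as by p53, was the 1 member that rose. Its level was -0.33, -0.16 and -0.36 on the Arid3b-null arrays and -0.99, -1.12 and -0.70 on the wild-type arrays. Every Arid3b-null array was above every wild-type array. The change was 0.65 ± 0.14 (95% interval 0.32 to 0.98), or 1.57-fold (1.25 to 1.98), with an adjusted p of 0.0176, and the slides gave 0.65, 0.96 and 0.34. It missed the threshold without Arid3b-null replicate 2 (adjusted p = 0.0557) and without wild-type replicate 1 (0.0651) or 2 (0.0517).

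Btg2 belongs to the BTG/Tob family of antiproliferative proteins, recruits the CCR4-NOT deadenylase to messenger RNA, and in the neural tube is known as a mark of progenitors about to produce neurons. Its level was -2.19, -2.15 and -2.56 on the Arid3b-null arrays and -0.86, -1.01 and -1.76 on the wild-type arrays. The groups did not overlap, and wild-type replicate 3 was the lowest of its group. The change was -1.09 ± 0.26 (95% interval -1.70 to -0.48), a level 2.13-fold lower, with an adjusted p of 0.0229. It was negative on each slide, at -1.33, -1.15 and -0.80. Without wild-type replicate 3 the change was -1.37 with an adjusted p of 0.00838, while leaving out any other array put the adjusted p past the threshold: 0.0511, 0.0522 and 0.0751 without Arid3b-null replicates 1, 2 and 3, and 0.0701 and 0.0680 without wild-type replicates 1 and 2.

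Trp53inp1 encodes a small nuclear protein that p53 induces, that supports p53 activity and that also takes part in autophagy. Its level was -1.65, -1.44 and -2.04 on the Arid3b-null arrays and -1.02, -1.06 and -1.07 on the wild-type arrays. The wild-type arrays were nearly equal, and each Arid3b-null array lay below them. The change was -0.66 ± 0.16 (95% interval -1.05 to -0.27), a level 1.58-fold lower, with an adjusted p of 0.0274. A second probe gave -3.91, -3.96 and -4.36 on the Arid3b-null arrays and -3.52, -3.58 and -3.49 on the wild-type arrays. These also did not overlap, and in the fit over all 24423 probes, of which 26.3% passed, its change was -0.55 ± 0.14 with an adjusted p of 0.0330, or 0.0542 with the slide as a block. The gene's adjusted p was past the threshold without Arid3b-null replicate 1 (0.0611) and without wild-type replicate 1 (0.0848), 2 (0.0690) or 3 (0.0647). The gene passed without Arid3b-null replicate 2 (0.0234) or 3 (0.0434).

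Aen, the apoptosis-enhancing nuclease, is an exonuclease that p53 induces and that degrades DNA and RNA in dying cells. Its level was 3.67, 3.92 and 3.69 on the Arid3b-null arrays and 4.14, 4.30 and 4.12 on the wild-type arrays. The groups did not overlap, and the slides gave close differences, at -0.47, -0.38 and -0.43. The change was -0.43 ± 0.12 (95% interval -0.71 to -0.14), a level 1.34-fold lower, with an adjusted p of 0.0405. A second probe moved by -0.41 ± 0.13 with an adjusted p of 0.0625, with levels of 3.63, 3.91 and 3.58 on the Arid3b-null arrays and 4.10, 4.25 and 4.01 on the wild-type arrays. The gene passed without Arid3b-null replicate 2 (adjusted p = 0.0402) but not without Arid3b-null replicate 1 (0.111) or 3 (0.104) or wild-type replicate 1 (0.101), 2 (0.114) or 3 (0.0692), and not after quantile normalization (0.112), median scaling (0.0955) or in the deposited table (0.145).

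**Figure D2:**
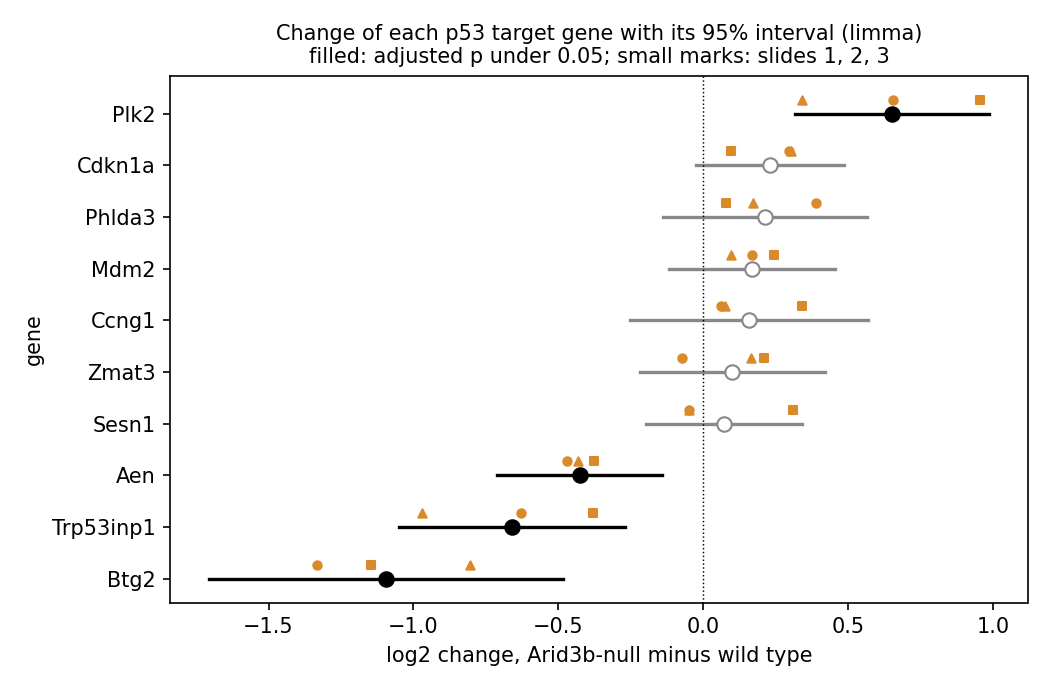
Change of each p53 target gene (x axis, log2, Arid3b-null minus wild type) with its 95% interval from limma. Large filled points passed at an adjusted p under 0.05, open points did not, and small marks are the differences within slides 1, 2 and 3 (circle, square, triangle). Plk2 lies at 0.65, Aen, Trp53inp1 and Btg2 lie below 0, and the 6 open points lie between 0.07 and 0.23 with intervals that reach below 0.

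The members that restrain p53 or growth signalling did not pass. Mdm2, the ubiquitin ligase that limits p53 and whose transcript is a common measure of p53 activity, was at 2.75, 2.91 and 2.60 on the Arid3b-null arrays and at 2.58, 2.66 and 2.50 on the wild-type arrays. The ranges overlapped, and the change was 0.17 ± 0.12 (95% interval -0.12 to 0.45, adjusted p = 0.341), so that a rise beyond 1.37-fold lay outside the interval. Phlda3, whose product keeps the kinase Akt from the membrane, was at 1.92, 1.95 and 1.66 on the Arid3b-null arrays and at 1.53, 1.87 and 1.49 on the wild-type arrays. Its Arid3b-null arrays were mostly higher, but wild-type replicate 2 lay among them. The change was 0.21 ± 0.15 (95% interval -0.14 to 0.57, adjusted p = 0.328).

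Ccng1, cyclin G1, brings a protein phosphatase to Mdm2. It was at -0.91, -0.44 and -0.99 on the Arid3b-null arrays and at -0.97, -0.78 and -1.06 on the wild-type arrays. Arid3b-null replicate 2 stood above the other 5 arrays. The change was 0.16 ± 0.17 (95% interval -0.25 to 0.57, adjusted p = 0.537), and it was -0.01 without that array.

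Sesn1, a sestrin that restrains the growth kinase complex mTORC1, and Zmat3, an RNA-binding zinc finger protein, had the smallest changes. Sesn1 was at 0.26, 0.41 and 0.23 on the Arid3b-null arrays and at 0.31, 0.10 and 0.28 on the wild-type arrays. The groups overlapped, and the change was 0.07 ± 0.11 (95% interval -0.20 to 0.34, adjusted p = 0.678). Zmat3 was at 0.06, 0.43 and 0.41 on the Arid3b-null arrays and at 0.13, 0.22 and 0.24 on the wild-type arrays. Its Arid3b-null arrays enclosed the wild-type ones, with a change of 0.10 ± 0.13 (95% interval -0.22 to 0.42, adjusted p = 0.616). A p above the threshold does not show that these genes kept their level, and the intervals bound what the arrays could have missed.

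**Figure D3:**
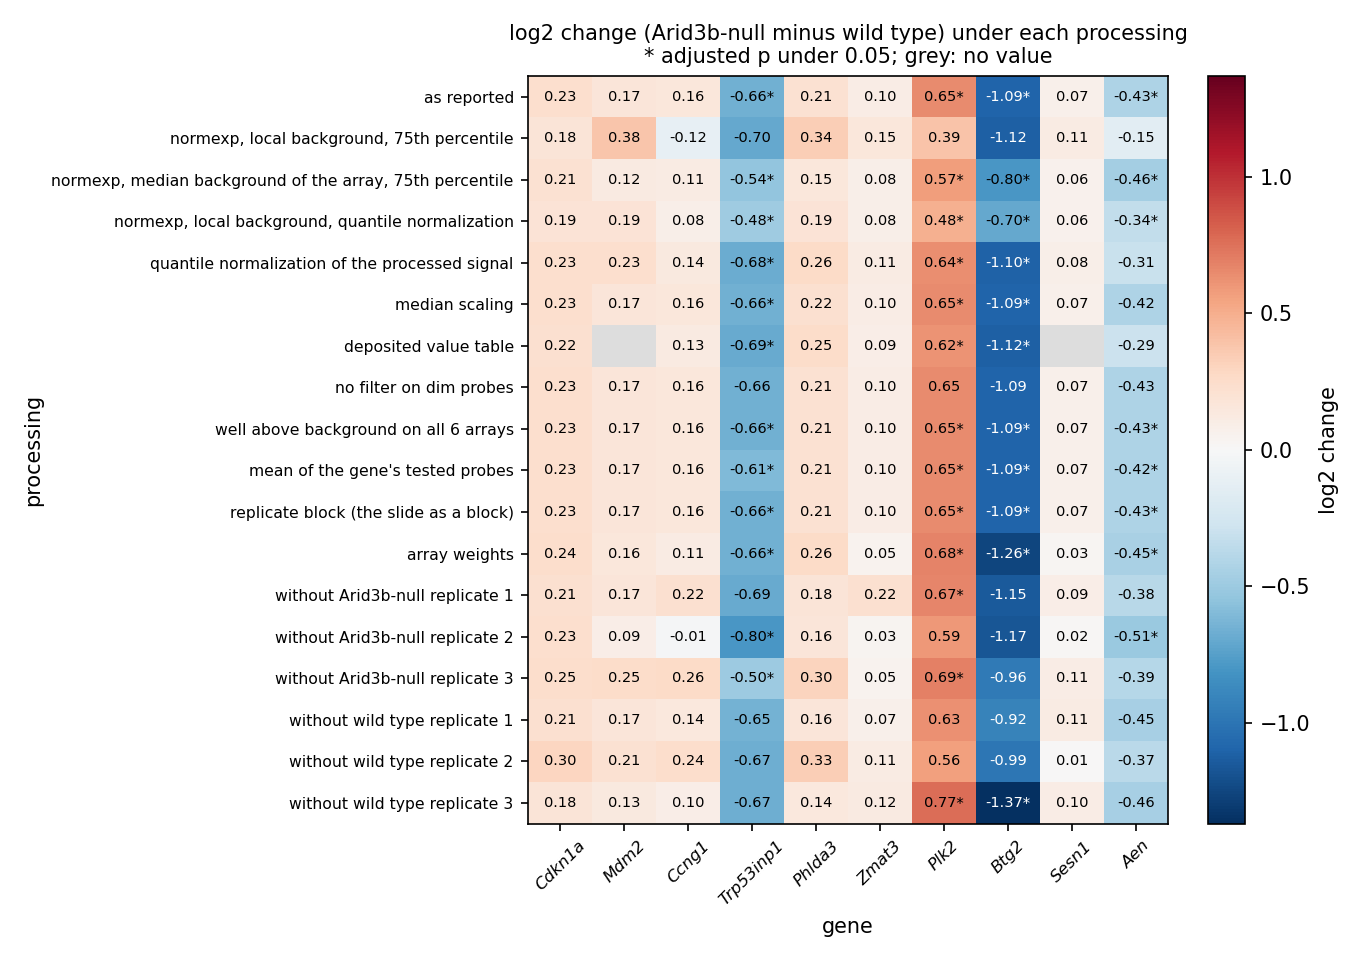
log2 change (Arid3b-null minus wild type) of each p53 target gene (columns) as reported and under 17 other processings (rows), on a colour scale from blue (lower in Arid3b-null) to red (higher). A star marks an adjusted p under 0.05 and grey a gene with no value. Plk2, Btg2, Trp53inp1 and Aen keep their direction in every row. None of them has a star for normexp with local background and 75th percentile or for no filter on dim probes, and each lacks stars in some of the rows that leave out an array.

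Most of these genes have close relatives in the genome, whose values are given beside theirs. Of 18 paralogues tested, 3 passed higher (16.7%, against 13.6% of all genes), 3 passed lower (16.7%, against 12.9%) and 12 did not pass, with a median change of -0.09. These shares lie near those of all genes. Among the sestrins, Sesn2 rose 2.94-fold, with levels of 2.29, 2.50 and 2.46 on the Arid3b-null arrays and 0.72, 0.98 and 0.89 on the wild-type arrays (change 1.56 ± 0.12, adjusted p = 0.000668). Sesn1 had 0.07 and Sesn3 0.29 (adjusted p = 0.345). Sesn2 is a p53 target too, and is also induced by the amino acid stress response.

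The other G-type cyclin, Ccng2, found in arrested cells and induced by FoxO factors, was at -1.63, -1.23 and -1.85 on the Arid3b-null arrays and at -3.00, -2.92 and -3.18 on the wild-type arrays. It rose 2.76-fold (change 1.46 ± 0.18, adjusted p = 0.00277), beside the 0.16 of Ccng1. In the BTG/Tob family, Btg3 rose 2.38-fold (1.25 ± 0.16, adjusted p = 0.00303) where Btg2 fell, and Btg1 had 0.40 (adjusted p = 0.0676). Whether paralogues differed from each other in their change was not tested.

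Among the polo-like kinases, Plk3 fell 2.31-fold, with levels of -0.67, -0.30 and -0.33 on the Arid3b-null arrays and 0.85, 0.63 and 0.84 on the wild-type arrays (change -1.21 ± 0.14, adjusted p = 0.00239). Plk3 is, like Plk2, a stress-regulated kinase, whereas Plk1, with -0.22 (adjusted p = 0.419), drives mitosis. Trp53inp2, an autophagy protein, fell 2.68-fold (-1.42 ± 0.11, adjusted p = 0.000677), in the direction of Trp53inp1. Cdkn1c, the p57 inhibitor, fell 1.45-fold (-0.54 ± 0.11, adjusted p = 0.0166), and passed neither without Arid3b-null replicate 1 (0.0527) nor without wild-type replicate 1 (0.0586) or 2 (0.0519). Cdkn1b, the p27 inhibitor, had 0.31 (adjusted p = 0.0741). Btg3 and Cdkn1c were named after their values were seen.

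**Figure D4:**
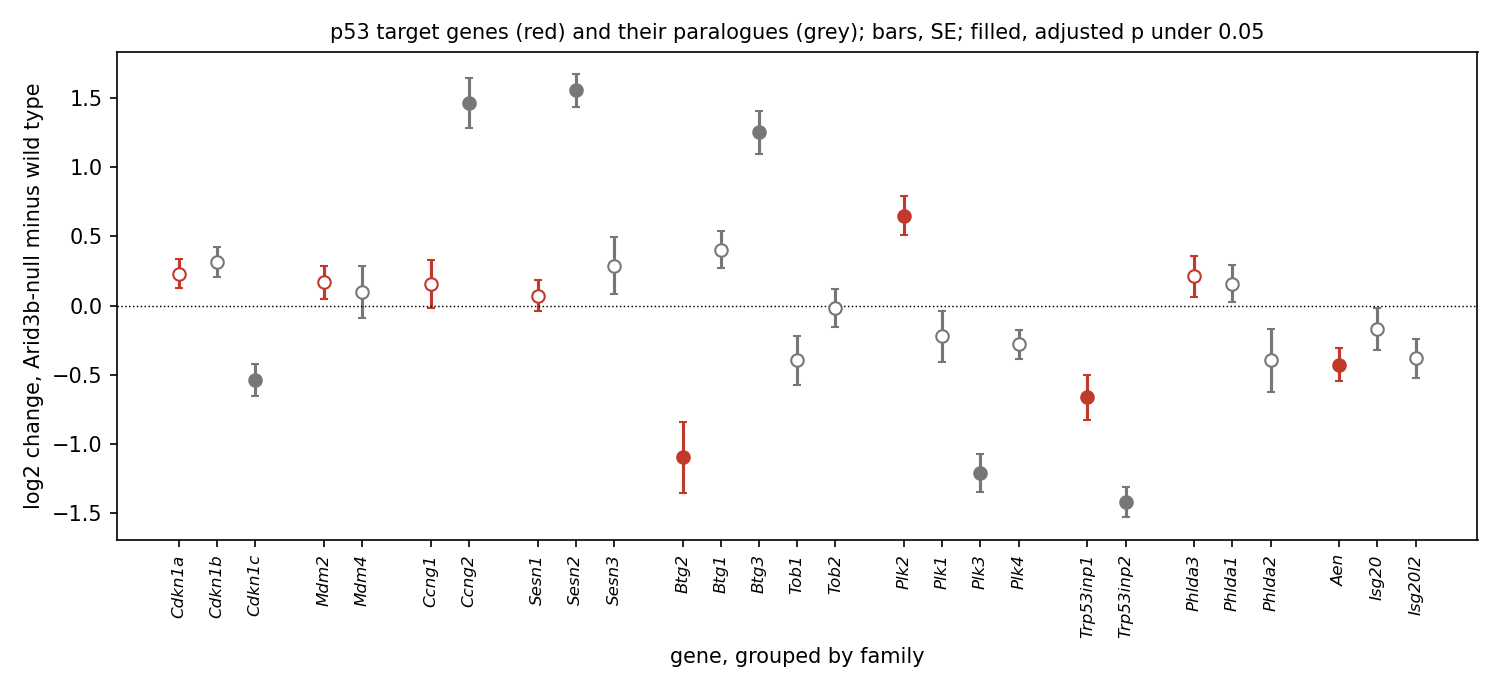
Change (y axis, log2, Arid3b-null minus wild type) of p53 target genes in red and their paralogues in grey, by family, with SE bars. Filled points passed at an adjusted p under 0.05. Sesn2, Ccng2 and Btg3 lie above 1, Trp53inp2 and Plk3 lie below -1, and the red points lie between -1.09 and 0.65.

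A wider list of 35 further p53 targets, of which 32 were tested, held more higher than lower genes. This list was chosen with earlier results of these data known, so its shares are a description. Of the 32 tested, 13 rose (40.6%, against 13.6% of all genes), 3 fell (9.38%, against 12.9%) and 16 did not pass, with a median change of 0.39. Besides Sesn2, Gls2, the mitochondrial glutaminase, rose 2.53-fold (1.34 ± 0.12, adjusted p = 0.00109), Ddb2, which recognises ultraviolet damage and is known as a p53 target from human cells, 1.68-fold (0.75 ± 0.10, adjusted p = 0.00405) and Dcxr, a carbonyl reductase, 1.66-fold (0.73 ± 0.10, adjusted p = 0.00381). The count of higher genes was 8, 7 and 11 without Arid3b-null replicates 1, 2 and 3, and 7, 8 and 9 without wild-type replicates 1, 2 and 3. That of lower genes was 1 or 2 whichever array was left out. With the slide as a block 9 rose and 2 fell. Calls over all 19795 genes fell in these fits too. They were 1660 to 2047 higher and 1205 to 2038 lower with 1 array left out, and 2428 and 2348 with the block, against 2695 and 2561 as reported. Among the alternatives that kept all arrays, the lowest count of higher genes on this list was 0. Under normexp with local background and 75th percentile, 2 of all 19795 genes were higher.

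The cell death genes of that list that act on the mitochondrial outer membrane gave mixed values. Bbc3, which encodes Puma, was at 1.44, 1.54 and 1.11 on the Arid3b-null arrays and at 0.81, 0.81 and 0.67 on the wild-type arrays. It rose 1.52-fold (0.60 ± 0.14, adjusted p = 0.0231), with adjusted p-values between 0.0560 and 0.0682 when any array other than Arid3b-null replicate 3 was left out. Pmaip1, which encodes Noxa, rose 1.76-fold (0.81 ± 0.17, adjusted p = 0.0162), and did not pass without Arid3b-null replicate 1 (0.0504) or 2 (0.0505). Bax, the pore-forming effector, had -0.26 ± 0.15 (adjusted p = 0.258).

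The 3 that fell were Tigar, Ppm1d and Cdip1. Tigar, a phosphatase that lowers glycolytic flux, was at -1.02, -0.95 and -1.33 on the Arid3b-null arrays and at -0.00294, 0.16 and -0.32 on the wild-type arrays, and was 2.06-fold lower (-1.04 ± 0.17, adjusted p = 0.00681). Ppm1d, the Wip1 phosphatase that ends p53 signalling, changed by -0.47 ± 0.11 (adjusted p = 0.0235). Cdip1, a pro-apoptotic membrane protein, changed by -0.42 ± 0.11 (adjusted p = 0.0286, or 0.0621 with the slide as a block). Leaving out single arrays gave adjusted p-values of 0.0273 to 0.0737 for Ppm1d and 0.0514 to 0.0844 for Cdip1. Bbc3, Pmaip1, Bax and these 3 were named after their values were seen.

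**Figure D5:**
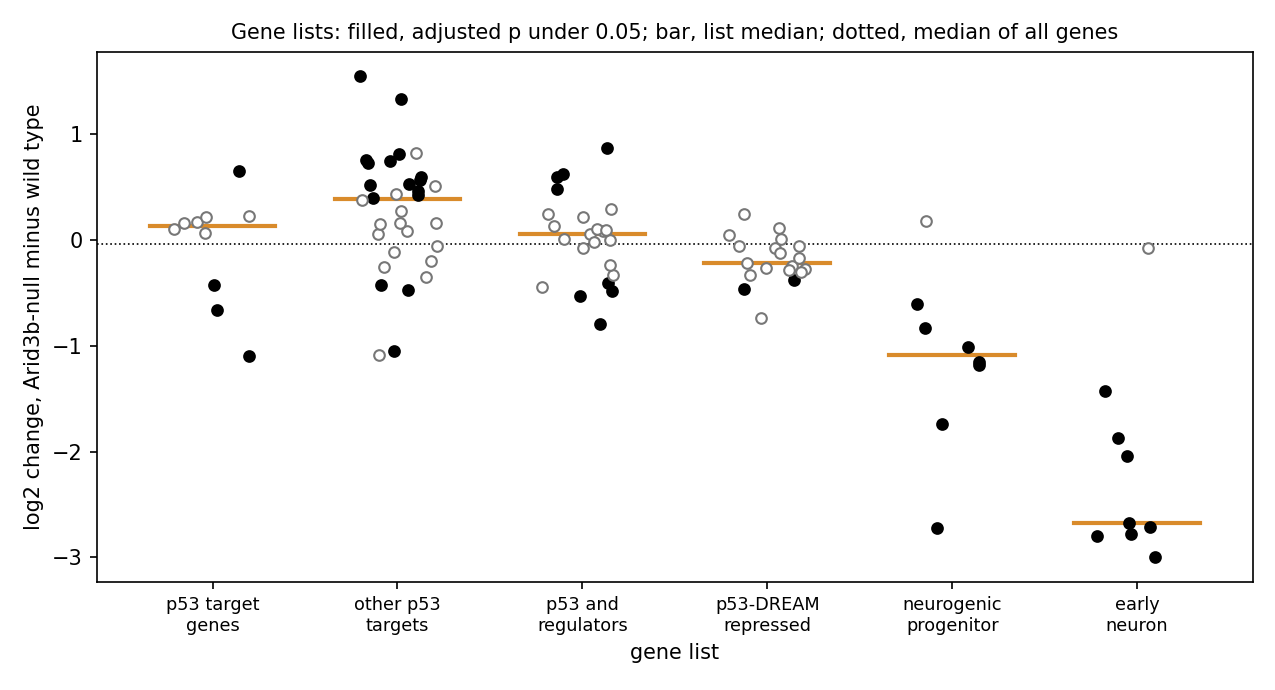
Change of each tested gene (y axis, log2, Arid3b-null minus wild type) in 6 gene lists along the x axis. Filled points passed at an adjusted p under 0.05, orange bars are list medians and the dotted line is the median of all genes, -0.039. The medians are 0.13 for the 10 p53 target genes, 0.39 for other targets, 0.06 for p53 and its regulators, -0.22 for p53-DREAM repressed genes, -1.08 for neurogenic progenitor markers and -2.67 for early neuron markers.

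The transcript of p53 itself, Trp53, was lower in Arid3b-null trunks. Its level was 0.89, 0.56 and 0.51 on the Arid3b-null arrays and 1.11, 1.28 and 1.16 on the wild-type arrays. The groups did not overlap, and Trp53 was 1.44-fold lower (-0.53 ± 0.14, adjusted p = 0.0306, or 0.0559 with the slide as a block). It passed without Arid3b-null replicate 1 but not without Arid3b-null replicate 2 (0.0878) or 3 (0.0857) or wild-type replicate 1 (0.0757), 2 (0.0890) or 3 (0.0673). Arrays of RNA do not measure p53 protein, which is controlled mainly by its stability. Mdm4, the partner of Mdm2, had 0.10 ± 0.19 (adjusted p = 0.732).

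Of 23 tested genes for p53 and its regulators, 4 passed higher, 4 lower (17.4% each, against 13.6% and 12.9% of all genes) and 15 did not pass. Ppp1r13l, which encodes the p53 inhibitor iASPP, rose 1.83-fold (0.87 ± 0.13, adjusted p = 0.00496). Ppp1r13b, which encodes its activating relative ASPP1, rose 1.51-fold (0.60 ± 0.10, adjusted p = 0.00885). Atr, the kinase of the replication checkpoint, rose 1.54-fold (0.62 ± 0.11, adjusted p = 0.00938). Of those close to the threshold, named after their values were seen, Prkdc had 0.48 (adjusted p = 0.0464, or 0.0562 with the slide as a block), Hipk2 -0.41 (0.0409, or 0.0666), Rps27l -0.48 (0.0406, or 0.0814) and Trp73 -0.79 (0.0463, or 0.0190). The count of lower genes was 1 with the slide as a block and at most 1 whichever array was left out. Over all genes, 2348 were lower with the block and 1205 to 2038 with an array left out, against 2561 as reported.

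p53 also lowers many cell cycle genes indirectly, by way of p21 and the DREAM repressor complex. Of 19 such genes tested, 2 fell (10.5%, against 12.9% of all genes) and 17 did not pass, with a median change of -0.22. The count of lower genes was 4 with array weights, 1 with the slide as a block and at most 1 with any array left out. Over all genes these fits gave 3076, 2348 and 1205 to 2038 lower genes, against 2561 as reported. Birc5, the survivin gene, fell 1.38-fold (-0.46 ± 0.10, adjusted p = 0.0194), and did not pass without Arid3b-null replicate 2 (0.0505) or 3 (0.0518) or wild-type replicate 1 (0.0684) or 2 (0.0592). Kif23, a kinesin of cell division, fell 1.30-fold (-0.37 ± 0.10, adjusted p = 0.0330, or 0.0691 with the slide as a block), and did not pass whichever array was left out (0.0549 to 0.117).

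Most markers of neurons and their progenitors were lower in Arid3b-null trunks. Of 8 neurogenic progenitor markers 7 fell (87.5%, against 12.9% of all genes), with a median change of -1.08. Their summed signal was 8.69 to 10.5 times the array's 75th percentile on the Arid3b-null arrays and 17.1 to 20.2 on the wild-type arrays. Such a sum weighs the brightest probes of a list most. Neurod1 was 3.35-fold and Gadd45g 2.23-fold lower, and Neurod4, not well above background on the Arid3b-null arrays, at least 2.75-fold lower. Neurod4 counts among the 7 but was tested only because it was bright in wild type, and it did not pass under any of the 3 normexp settings, where its change was -1.33, -0.32 and -0.29. Of 9 early neuron markers 8 fell (88.9%, against 12.9% of all genes), with a median of -2.67. Summed signals were 2.43 to 3.104 on the Arid3b-null arrays and 10.6 to 12.8 on the wild-type arrays. Stmn2 was 8.01-fold, Elavl3 6.97-fold, Ina 6.87-fold and Nefl 4.12-fold lower. The part of these cells in the lower Btg2, Trp53inp1 and Aen was not tested. In RNA of whole trunks, fewer cells of a type and less RNA per cell cannot be told apart.

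Some markers of other cell types differed as well. Of 8 limb ridge and surface ectoderm markers 3 rose (37.5%, against 13.6% of all genes), Krt19, Krt8 and Krt18, and 5 did not pass. Summed signals were 60.2 to 70.1 on the Arid3b-null arrays and 28.3 to 41.6 on the wild-type arrays. Krt18 did not pass without Arid3b-null replicate 1 (adjusted p = 0.0523) or 2 (0.0671) or wild-type replicate 1 (0.0664) or 3 (0.0617). Of 8 primitive erythroid markers 2 fell (25%, against 12.9% of all genes), Klf1 and Gata1, and 6 did not pass. Summed signals over the 8 were 457 to 545 on the Arid3b-null arrays and 573 to 757 on the wild-type arrays. Of 6 myotome markers 4 were tested and 2 of these fell (50%, against 12.9% of all genes), Myog and Chrna1. The changes of the 4 ran from -1.51 to 0.48, and Myf5 and Myod1 were below the filter. Summed signals were 8.49 to 13.0 on the Arid3b-null arrays and 14.6 to 17.5 on the wild-type arrays. The macrophage markers Ptprc, Lyz2, Cd68 and C1qa did not pass the filter, and Csf1r and Adgre1 did not pass the test. Of the trunk markers Olig2 fell, by 0.73, and of the forebrain markers Lhx2, which the limb also expresses, by 0.46, while Six3 did not pass the filter. Lhx2 missed the threshold in the fit blocked by slide (adjusted p = 0.0535) and whichever array was left out (0.0593 to 0.140). The part of these cell types in the changes of the p53 target genes was not tested.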

How the data were processed

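Per the file headers, spots were read with Agilent Feature Extraction 10.7.3.1 (protocol GE1_107_Sep09, array design 026655, build mm9). The authors deposited each array's scanner output, which holds intensity on a linear scale, and the processed signal used here is background-subtracted by the scanner software, per the file headers. The series' deposited value table holds log2 values of 24181 probes (median 6.77 in each column). It correlated across probes at 0.999 to 1.00 with each array's own log2 processed signal, was not centred per gene, and the labels and files do not state how it was made. It served as an alternative.

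Non-control spots (43020 of 44397) were taken, outlier-marked spots (100 to 169 an array) were dropped, and a probe's spots were averaged as log2 values minus the array's 75th percentile. Accessions were matched to RefSeq symbols of GRCm38.p6, used for names and promoter windows only, which named 26424 probes and left 13005 unnamed. Testing took the 24423 probes that all 3 arrays of either group showed well above background. The tested probe with the highest mean stood for its gene (19795 genes, 8 of the 10 targets having 1 tested probe and 2 having more). limma 3.58.1 in R 4.3.3 (lmFit and eBayes) compared the groups, with Benjamini-Hochberg adjustment over all genes, after a test on simulated data. A lower bound of a fold set the brighter group against the higher of the dim probe's own signal and the lowest signal well above background. Precision is limited by 3 arrays per group.

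The labels' replicate numbers match the slides in the headers, each with 1 array of either group. Deviations from group means correlated at 0.163, 0.387 and 0.278 within slides and at -0.346 to 0.117 between slides. Deviations within a group cancel out, so these correlations are not independent of each other. The number was taken to pair the samples. A fit with the slide as a block was run beside the reported fit, which has no block. There were 17 alternatives, 6 of them leaving out an array. Normexp (offset 50) used the median spot signal.

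The target genes, the promoter motifs and all gene lists were chosen with earlier results of these data known. Genes named were the targets, Arid3b, Trp53, Mdm4 and, per list, up to 4 that passed with the lowest adjusted p, or the 2 lowest where none passed. Btg1, Btg3, Cdkn1b, Cdkn1c, Plk1, Sesn3 and those so marked in the text were named after their values were seen. The value of 1 gene that this rule names is not reported here.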

Additional observations from a re-analysis of the deposited data

How the results depend on the processing

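For the 10 p53 target genes, 138 of 168 pairs of gene and alternative kept direction and side of the threshold, 28 lost a call and 2 changed sign. The higher count of 1 and the lower count of 3 became 0 and 0 under normexp with local background and 75th percentile, and 0 and 0 without the filter on dim probes. At an unadjusted p under 0.05 limma counted 0 higher and 2 lower targets in the first of these, where 1901 of 19795 genes had such a p, and 1 and 3 in the second, where 7382 of 32530 had. In the first, 2 of 19795 genes passed and the median change of all genes was -0.22, while local background reached 137.5 units on Arid3b-null replicate 3, and 445 and 34802 on wild-type replicates 2 and 3. With the array's median background 2348 genes were higher and 2183 lower. Without the filter 1288 and 998 of 32530 were, against 2695 and 2561 as reported. The cause was not tested. Leaving out 1 array gave 0 to 1 higher and 0 to 2 lower targets, and 1660 to 2047 higher and 1205 to 2038 lower genes in all. With the replicate block (the slide), 1 target was higher and 3 lower, Plk2 having an adjusted p of 0.0412, Trp53inp1 of 0.0381, Btg2 of 0.0120 and Aen of 0.0460. In the same fit 2428 of all genes were higher and 2348 lower, 24.1% together. Among the genes named it changed no call other than those given with them, except that Hoxb6 passed (adjusted p = 0.0450, against 0.0833 as reported). Under normexp with local background, Ccng1 was at -0.12, Mdm4 at -0.00569, Adgre1 at -0.99, Pmaip1 at -0.30 and Bax at 0.0165. Without Arid3b-null replicate 2, Ccng1 was at -0.0112 and Mdm4 at -0.00133, and without wild-type replicate 1 Mdm4 was at -0.0504. Adgre1 was at -0.0558 with array weights, -0.00546 and -0.12 without Arid3b-null replicates 1 and 3, and -0.25 without wild-type replicate 2. Over the 6 fits that each left out 1 array, Ccng1 ranged over -0.0112 to 0.26, Mdm4 over -0.0504 to 0.25 and Adgre1 over -0.25 to 0.21. Mdm2 and Sesn1 have no value in the deposited table.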
